A study of Gallus gallus with 9 samples.

Results

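The genes described here are linked to the red cell and its hemoglobin. They are the alpha-type globins HBA1, HBAD and HBZ and the red cell membrane genes RHAG and EPB42. The heme synthesis gene ALAS1 and the erythroid transcription factor GATA1 complete the set. All 7 were chosen by name, and 6 of the 7 had a probe set under their symbol in the platform annotation, out of 13009 genes measured. GATA1 was not analysed here. Where a gene had several probe sets, the brightest on average stood for it. The RefSeq table gives ALAS2 and ALAS-E, names of the erythroid enzyme, as synonyms of ALAS1, so the value called ALAS1 cannot be assigned to the housekeeping or the erythroid form.

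The series set PGC against GSC preparations, both sorted by magnetic-activated cell sorting (MACS) from gonads of WL embryos at 6.5 days. PGC is the usual abbreviation of primordial germ cell, whereas the labels do not spell out GSC or WL. There were 3 PGC and 6 GSC preparations, each hybridised to its own Affymetrix GeneChip Chicken Genome Array, and no genotype or treatment is given for either. The sex of the embryos, the antigen used for sorting and any pooling of embryos were not named by the labels. Nothing says that the preparations came from separate pools of embryos, so the p-values describe their spread alone, part of which may be technical.

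Hemoglobin joins a pair of alpha-type and a pair of beta-type globin chains, each holding a heme group. In the chick embryo the first, primitive red cells carry embryonic chains, among them the HBZ product (pi globin) and the beta-type rho and epsilon chains (HBBR and HBE), and the later definitive cells carry the HBA1 (alpha-A) and HBAD (alpha-D) products, which primitive cells also make. Avian red cells keep their nucleus and circulate through the gonad's vessels, so their RNA can accompany cells taken from that organ.

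Values are log2 expression values made by the authors with RMA, and a difference of 1 is a doubling. The array carries 57 probe sets for reporter genes (RPTR) foreign to the chicken. The 95th percentile of their values, 2.88, is called the reporter mark. Array medians lay between 3.03 and 3.12. Pearson's r between arrays was 0.974 to 0.990 among PGC arrays, 0.930 to 0.969 between the fractions and 0.987 to 0.996 among GSC arrays. PGC replicate 3 stood nearest to the GSC arrays (0.956 to 0.969, against 0.930 to 0.941 for PGC replicate 1 and 0.942 to 0.95 for PGC replicate 2). The sort was visible in both directions, by marker lists chosen with earlier results of these data known. Of 11 measured germ cell markers, 10 were higher in PGC, where 22.5% of all genes were. Of 15 gonadal somatic cell markers, 12 were lower, where 19.5% of all genes were. Results are also given without PGC replicate 3 where it matters. That array was picked for its nearness to GSC, so leaving it out favours larger differences. A pass gained in this way is a description and no separate support.

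All 6 measured genes had a lower mean in the PGC fraction, as had 51.9% of all genes. The 6 share the same arrays, so they are not separate instances. Of the 6, 3 passed the test: EPB42, RHAG and ALAS1. Differences were tested with limma over all 13009 genes, and a gene was called at an adjusted p under 0.05. Over all genes, 19.5% were called lower in PGC and 22.5% higher, and 42.0% were called in either direction, so calls were common in this comparison. The median log2 difference was -0.47 over the 6 genes and -0.02 over all genes. In 3 of the 6, HBA1, EPB42 and ALAS1, every PGC value was below every GSC value, and 36.4% of all genes had fractions without overlap. In a sorted bulk preparation, fewer red cells, less of a transcript per red cell and a different amount of it from other cells cannot be told apart.

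**Figure D1:**
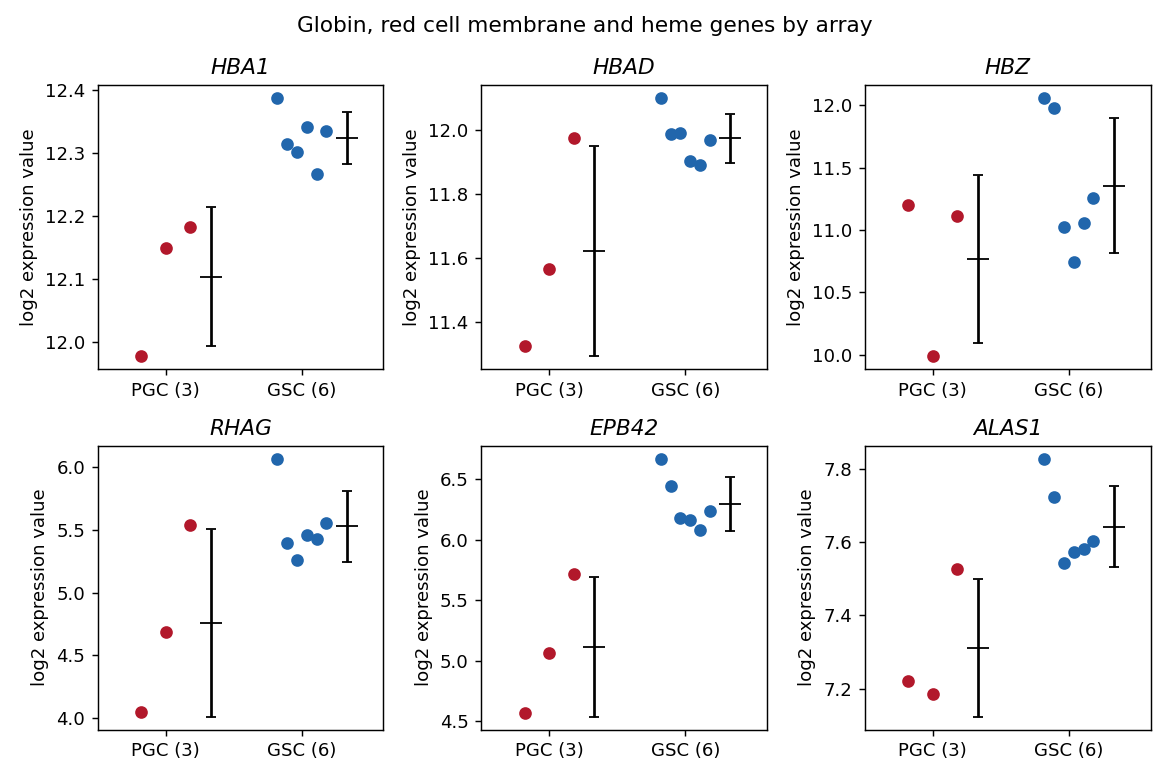
Log2 expression value (vertical axis, a separate scale for each gene) of the 6 measured genes on the 3 PGC and 6 GSC arrays, with the mean and SD of each fraction in black. All 3 PGC arrays lie below every GSC array for HBA1, EPB42 and ALAS1, while for HBAD, HBZ and RHAG at least 1 PGC array lies among the GSC arrays.

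HBA1, the adult alpha-A chain, gave a strong signal in both fractions. Its value was 11.98, 12.15 and 12.18 on PGC replicates 1, 2 and 3, and ran from 12.27 through a median of 12.32 to 12.39 on the 6 GSC arrays. The fractions did not overlap, but they lay close together. The means were 12.10 ± 0.11 (SD, n = 3) in PGC and 12.32 ± 0.04 (SD, n = 6) in GSC, a log2 difference of -0.22 ± 0.09 (SE) that did not pass (limma adjusted p = 0.0655), with a 95% interval of -0.41 to -0.03. In an exact permutation test over the 84 ways of choosing 3 of 9 arrays, two-sided and unadjusted, p was 0.0119, the smallest that test can give. For EPB42 and ALAS1 the same permutation test also gave p = 0.0119, for HBAD 0.0476 and for HBZ 0.214. Without PGC replicate 3 the difference was -0.26 and passed (limma adjusted p = 0.0425), and without PGC replicate 1 it was -0.16 (adjusted p = 0.254). HBA1 was also at the top of the scale: its value was the highest of all tested probe sets on each of the 6 GSC arrays, and it lay 0.10 to 0.11 below the highest on the PGC arrays. The highest value itself was 12.08 to 12.30 on the PGC arrays and 12.27 to 12.39 on the GSC arrays. Other globin genes also lay near the top, with HBAD and HBBR reaching 12.10 and HBZ 12.06. Whether any of these signals was compressed there was not tested.

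HBAD encodes the alpha-D chain, and its gene lies between those of HBZ and HBA1 in the RefSeq gene order. It measured 11.33, 11.56 and 11.97 on PGC replicates 1, 2 and 3, against 11.89 to 12.10 with a median of 11.98 on the GSC arrays. PGC replicates 1 and 2 were below every GSC array, and PGC replicate 3 stood at the GSC mean. The spread was accordingly wider in PGC (SD 0.33) than in GSC (SD 0.08). The log2 difference of -0.35 ± 0.13 (SE) fell just outside the threshold (limma adjusted p = 0.0507), with a 95% interval of -0.64 to -0.06. Without PGC replicate 3 it was -0.53 (limma adjusted p = 0.00156), and without PGC replicate 1 it was -0.20 (adjusted p = 0.261).

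HBZ, the embryonic alpha-type chain, varied most among replicates of the 3 alpha-type genes. It measured 11.20, 9.99 and 11.11 on PGC replicates 1, 2 and 3. The GSC values were 12.06, 11.98, 11.03, 10.75, 11.06 and 11.26 on replicates 1 to 6. The low PGC array here was replicate 2, whereas replicate 1 was the lowest for HBA1 and HBAD, and GSC replicates 1 and 2 stood above the other 4. The fractions overlapped, and the log2 difference of -0.59 ± 0.34 (SE) did not pass (limma adjusted p = 0.189). Its 95% interval of -1.33 to 0.15 includes a difference of the size seen for EPB42 as well as none. Without PGC replicate 2 the difference was -0.20, also not passing (adjusted p = 0.678).

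The beta-type embryonic genes had the same low array as HBZ, PGC replicate 2. That array was also the lowest for ALAS1 (7.18) and the membrane gene SLC4A1 (5.80), so it was not particular to embryonic globins. HBBR, the rho chain, measured 11.57, 10.83 and 11.48 on PGC replicates 1, 2 and 3, against 11.39 to 12.10 on the GSC arrays, with its 2 highest values on GSC replicates 1 and 2 (12.10 and 11.87). HBE, the epsilon chain, measured 11.35, 11.02 and 11.55 on the PGC arrays, against 11.41 to 11.99 on the GSC arrays, again highest on GSC replicates 1 and 2 (11.99 and 11.80). Over the 9 arrays Pearson's r of HBZ was 0.97 with HBBR and 0.95 with HBE, but 0.40 with HBA1 and 0.50 with HBAD, while HBA1 and HBAD correlated at 0.91. Over the 6 GSC arrays alone these were 0.93, 0.97, 0.47, 0.79 and 0.72. There HBZ also ran with ALAS1 (0.93) and EPB42 (0.91), against 0.77 and 0.58 over all 9 arrays. HBAD likewise ran with HBE (0.90) and HBBR (0.82) over the GSC arrays, against 0.72 and 0.48 over all 9. All points of these correlations share the arrays and their normalization and are given as a description. Neither HBBR (log2 difference -0.33 ± 0.20 SE, limma adjusted p = 0.215) nor HBE (-0.33 ± 0.15, adjusted p = 0.111) passed. HBE passed without PGC replicate 3 (-0.45, adjusted p = 0.0384).

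**Figure D2:**
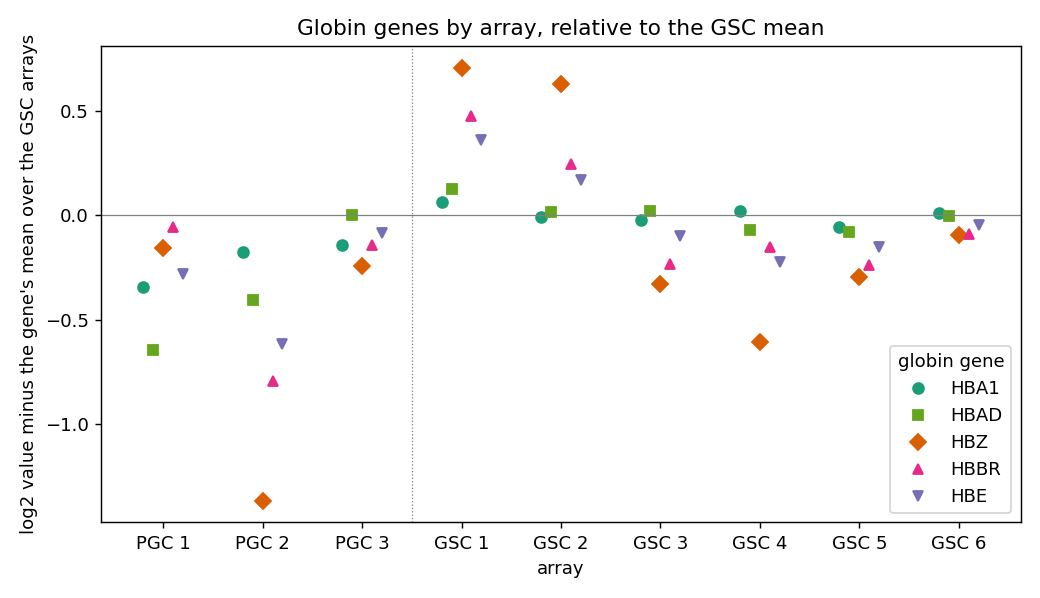
Log2 value of 5 globin genes on each array (horizontal axis), minus that gene's mean over the 6 GSC arrays (vertical axis). On PGC replicate 2 HBZ lies 1.37 below its GSC mean and HBBR and HBE are at their lowest, while HBA1 and HBAD are lowest on PGC replicate 1.

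Of 5 other measured members of the globin superfamily, 1 was called lower and 0 higher, with a median of -0.33, against -0.02 over all genes and 19.5% of all genes called lower. Beside HBBR and HBE these were myoglobin (MB), cytoglobin (CYGB) and neuroglobin (NGB), which are not red cell proteins. CYGB was the 1 called lower (limma adjusted p = 0.0271), but all 3 PGC arrays and 4 of the 6 GSC arrays lay below the reporter mark, so no size is given. Its call was lost without PGC replicate 1 or 2 or GSC replicate 2 (adjusted p of 0.102, 0.0728 and 0.0531). With HBE called in addition 2 were lower without PGC replicate 3, and without GSC replicate 1 MB made the second (-0.42, adjusted p = 0.0434).

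EPB42 encodes protein 4.2, which ties the anion exchanger band 3 to ankyrin in the red cell membrane. It measured 4.57, 5.06 and 5.72 on PGC replicates 1, 2 and 3, against 6.08 to 6.67 with a median of 6.21 on the GSC arrays. All PGC arrays were below all GSC arrays. The means of 5.11 ± 0.58 (SD, n = 3) in PGC and 6.29 ± 0.22 (SD, n = 6) in GSC gave a log2 difference of -1.18 ± 0.22 (SE), so that EPB42 fell 2.26-fold in PGC (limma adjusted p = 0.00122). The 95% interval ran from -1.66 to -0.70. The call held in each of the 9 fits that left out 1 array, with differences from -1.48 to -0.90.

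The second probe set of EPB42 gave the same picture at a lower signal, with 2.91, 3.64 and 4.52 on the PGC arrays and 4.55 to 5.43 on the GSC arrays. Its log2 difference was -1.19 ± 0.30 (SE) in the fit over all probe sets (limma adjusted p = 0.0116). In that fit 14.6% of 38439 probe sets were called lower and 28.4% in either direction, and 26% had fractions without overlap. Of the 12 probe sets of the members, 4 were called lower.

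RHAG, the Rh-associated glycoprotein, anchors the Rh complex in the red cell membrane. It measured 4.05, 4.68 and 5.54 on PGC replicates 1, 2 and 3. The GSC arrays ran from 5.26 through a median of 5.44 to 6.07. PGC replicates 1 and 2 were below every GSC array, and PGC replicate 3 was within their range. The log2 difference was -0.77 ± 0.27 (SE), a 1.70-fold fall in PGC (limma adjusted p = 0.0419), with a 95% interval of -1.37 to -0.17. The exact permutation test over the 84 splits gave p = 0.0595, two-sided and unadjusted.

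The RHAG call rested on which arrays were used. It held in 2 of the 9 fits with 1 array left out, without PGC replicate 3 (-1.16, limma adjusted p = 7.925e-04) and without GSC replicate 3. Leaving out PGC replicate 1 (-0.41, adjusted p = 0.230) or PGC replicate 2 (-0.73, adjusted p = 0.113) ended it, as did leaving out any of GSC replicates 1, 2, 4, 5 and 6 (adjusted p from 0.0580 to 0.0714). The second RHAG probe set measured 3.45, 4.19 and 4.45 on the PGC arrays and 4.56 to 5.56 on the GSC arrays, without overlap. Its log2 difference of -0.91 ± 0.25 (SE) passed in the fit over all probe sets (limma adjusted p = 0.0169), in which the brighter probe set did not (adjusted p = 0.0600).

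Around these genes, 22 other members of a list of red cell membrane and skeleton genes were measured. Of these 8 were called lower in PGC, 2 higher and 12 did not pass, with a median of -0.32, against -0.02 over all genes and 19.5% of all genes called lower. ANK1, the ankyrin that binds band 3, measured 5.01, 5.07 and 5.80 on the PGC arrays and 5.93 to 6.84 on the GSC arrays. It fell by 0.89 ± 0.23 (SE, limma adjusted p = 0.00865). SLC4A1, band 3 itself, measured 6.21, 5.80 and 7.70 on the PGC arrays, against 7.08 to 8.33 on the GSC arrays. PGC replicate 3 was within the GSC range, and the log2 difference of -0.95 ± 0.38 (SE) did not pass (limma adjusted p = 0.0665). It was -1.51 without PGC replicate 3 (adjusted p = 8.567e-04) and -0.56 without PGC replicate 2 (adjusted p = 0.300).

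The 4 largest falls on that list belonged to genes that are widely expressed in other cells. TMOD3, an actin filament capping protein, fell by 1.31 ± 0.22 (SE), and ADD3, an adducin, by 1.12 ± 0.17. SPTAN1 and SPTBN1, the non-erythroid spectrins, fell by 1.05 ± 0.12 and 1.02 ± 0.18. The erythroid spectrin SPTB did not pass (log2 difference -0.59 ± 0.25, limma adjusted p = 0.0828). It passed without PGC replicate 3 (-0.78) or GSC replicate 1 (-0.41, adjusted p = 0.0423), and its value on GSC replicate 1 was 4.81, against 3.61 to 3.86 on the other GSC arrays. The 2 that rose in PGC were STOM, a stomatin found in many membranes, by 2.36 ± 0.18, and MPP1, a palmitoylated scaffold protein, by 0.79 ± 0.13. RHCE, the Rh protein that partners RHAG, measured 6.03, 5.68 and 5.91 on the PGC arrays and 5.64 to 6.42 on the GSC arrays, overlapping (log2 difference -0.11, limma adjusted p = 0.610).

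ALAS1 stands for 5-aminolevulinate synthase, the first and rate-limiting enzyme of heme synthesis. It measured 7.22, 7.18 and 7.53 on PGC replicates 1, 2 and 3, against 7.54 to 7.83 with a median of 7.59 on the GSC arrays. The fractions did not overlap, although PGC replicate 3 lay just below the lowest GSC array. The log2 difference of -0.33 ± 0.11 (SE) was a 1.26-fold fall in PGC (limma adjusted p = 0.0319), with a 95% interval of -0.57 to -0.09. The call held in 4 of the 9 fits with 1 array left out. It was lost without PGC replicate 1 (-0.29, adjusted p = 0.120), PGC replicate 2 (-0.27, 0.126), GSC replicate 1 (-0.29, 0.0521), GSC replicate 2 (-0.32, 0.0623) or GSC replicate 6 (-0.34, 0.0518).

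Of the 5 later enzymes of the pathway that were measured, 2 were called higher in PGC and 0 lower, with a median of 0.24, where 22.5% of all genes were called higher. FECH, ferrochelatase, which inserts iron to complete heme, measured 6.48, 6.25 and 6.46 on the PGC arrays and 5.25 to 6.16 on the GSC arrays. The arrays did not overlap, and FECH rose by 0.74 ± 0.20 (SE, limma adjusted p = 0.0103). UROD, uroporphyrinogen decarboxylase, rose by 0.56 ± 0.17 (adjusted p = 0.0195), a call lost without PGC replicate 1 (0.46, adjusted p = 0.0928), which left 1 called. ALAD (0.03), UROS (0.24) and CPOX (0.15) did not pass. With GSC replicates 1 to 3 alone, 0 of these enzymes were called higher. FECH was highest on GSC replicates 1 and 2 (6.16 and 5.99) among the GSC arrays, as EPB42 and HBZ were. Over the 6 GSC arrays Pearson's r of FECH with EPB42 was 0.95, and over all 9 arrays it was -0.52, each given as a description.

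**Figure D3:**
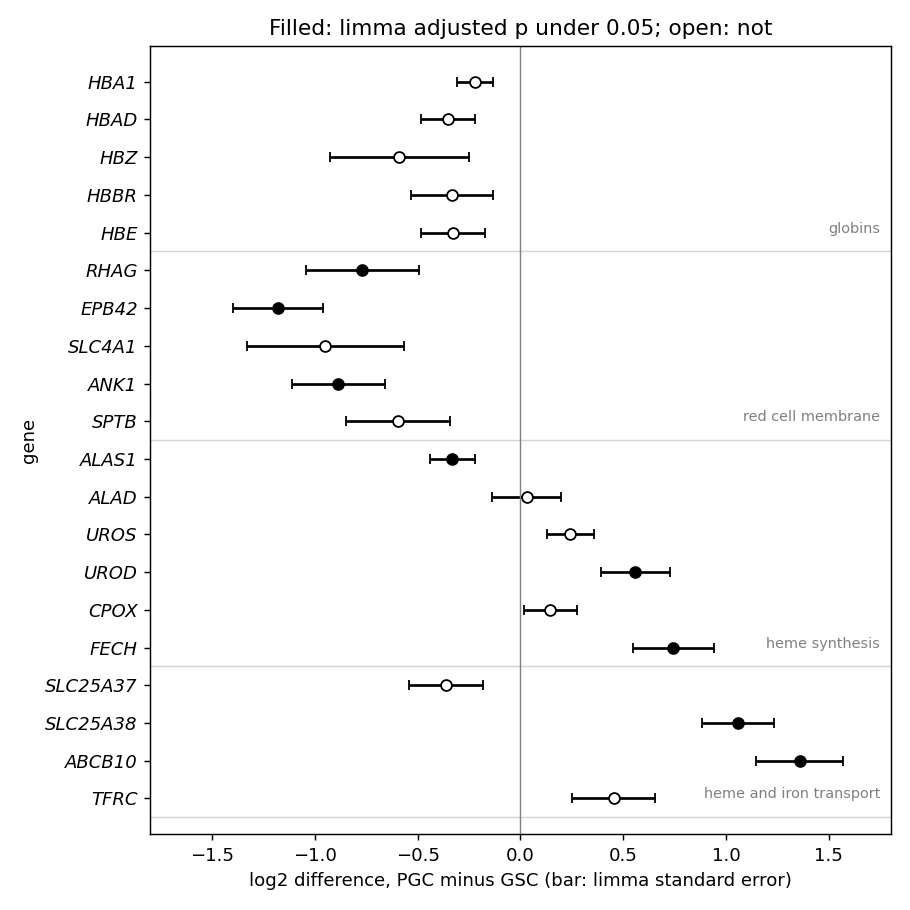
Fitted log2 difference, PGC minus GSC (horizontal axis), with limma's standard error, for globin, red cell membrane, heme synthesis and transport genes; filled points passed at an adjusted p under 0.05. The 5 globin genes and the 5 membrane genes drawn here lie below 0, with EPB42 at -1.18, and STOM and MPP1, membrane genes that rose, are not drawn, while FECH (0.74), SLC25A38 (1.06) and ABCB10 (1.36) lie above it.

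Of 15 genes of heme breakdown, transport and iron handling, 3 were called higher, 2 lower and 10 did not pass, with a median of 0.09. Neither count exceeded the share over all genes, of which 22.5% were called higher and 19.5% lower. ABCB10, a transporter of the inner mitochondrial membrane needed for heme production in erythroid cells of mice, rose by 1.36 ± 0.21 (SE, limma adjusted p = 3.929e-04). It measured 9.12, 9.16 and 8.22 on the PGC arrays and 7.11 to 7.82 on the GSC arrays. SLC25A38, the mitochondrial carrier that supplies glycine for the ALAS reaction, rose by 1.06 ± 0.18 (adjusted p = 6.232e-04), and the heme-binding protein HEBP1 by 0.59 ± 0.13. The 2 lower were BLVRA, biliverdin reductase, by 0.50 ± 0.17 (limma adjusted p = 0.0344), and the heme transporter SLC48A1, by 0.39 ± 0.13 (adjusted p = 0.0286). Neither was called without PGC replicate 1 or 2 or GSC replicate 2, and without GSC replicate 6 only BLVRA was. SLC48A1 also lost its call without GSC replicate 5 (adjusted p = 0.0584). TFRC, the transferrin receptor that brings iron into erythroid and dividing cells, did not pass (0.45 ± 0.20, adjusted p = 0.0951), but did without GSC replicate 1 (0.57, adjusted p = 0.0143).

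GATA1 acts with TAL1, LMO2 and LDB1 in the transcription factor complex of erythroid cells. Of 15 measured genes on the list of erythroid factors and the erythropoietin receptor pathway, 3 were called lower, 1 higher and 11 did not pass, with a median of -0.15. That count lower is near the share over all genes, of which 19.5% were called lower and 22.5% higher. LMO2 measured 3.77, 4.70 and 5.97 on the PGC arrays and 6.32 to 6.80 on the GSC arrays. It fell by 1.66 ± 0.35 (SE, limma adjusted p = 0.00294), without overlap. LMO2 is also a gene of endothelial cells. HEMGN, hemogen, a nuclear protein of erythroid cells and a GATA1 target in mammals, measured 6.25, 6.68 and 7.57 on the PGC arrays and 8.16 to 8.45 on the GSC arrays, and fell by 1.45 ± 0.22 (adjusted p = 3.653e-04). Chicken HEMGN is expressed in gonadal somatic cells too, so it marks no single cell type here.

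Among the 6 GSC arrays HEMGN was highest on replicate 6 (8.45) rather than on replicate 1, where the members were highest. Its Pearson r over these arrays, where it varied little (SD 0.11), was -0.004 with EPB42 and -0.04 with HBA1. Over all 9 arrays r was 0.96 with EPB42 and 0.93 with HBA1, each given as a description. The third factor called lower, SOX6, was below the reporter mark on all 9 arrays, and its call was lost without any array except PGC replicate 3 or GSC replicate 1. TAL1 did not pass (-0.39 ± 0.16, limma adjusted p = 0.0720). It passed without PGC replicate 3 (-0.52, adjusted p = 0.0212) or GSC replicate 4 (-0.44, adjusted p = 0.0447), and was -0.19 without PGC replicate 1. KLF3, a repressor of the Krüppel-like family, rose by 0.94 ± 0.19. Of the 15 genes, 7 lay below the mark on all 9 arrays, among them GATA2, ZFPM1 and MYB. Without PGC replicate 3, 5 genes of the list were called lower, among them TAL1 and GFI1B (which lies below the mark on all 9 arrays), and 2 were when PGC replicate 1 or 2, or any of GSC replicates 2, 3, 5 and 6, was left out.

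Of 9 measured enzymes and other proteins abundant in maturing red cells, 2 were called higher, 1 lower and 6 did not pass, with a median of 0.23. Neither count exceeded the share over all genes, of which 22.5% were called higher and 19.5% lower. TSPO2, a cholesterol-binding protein of erythroid cells in mammals, measured 5.53, 6.07 and 6.54 on the PGC arrays and 6.60 to 7.63 on the GSC arrays. It fell by 0.86 ± 0.26 (SE, limma adjusted p = 0.0186), a call lost without PGC replicate 1 (-0.60, adjusted p = 0.108) or 2 (-0.87, 0.0506). The nucleotidase NT5C3A and the peroxidase GPX1, both widely expressed, rose by 0.75 ± 0.15 and 0.74 ± 0.11. Without PGC replicate 1, 4 genes of this list were called higher, with CAT and CA2 added, and without PGC replicate 3 or GSC replicate 4 HDAC11 was added.

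**Figure D4:**
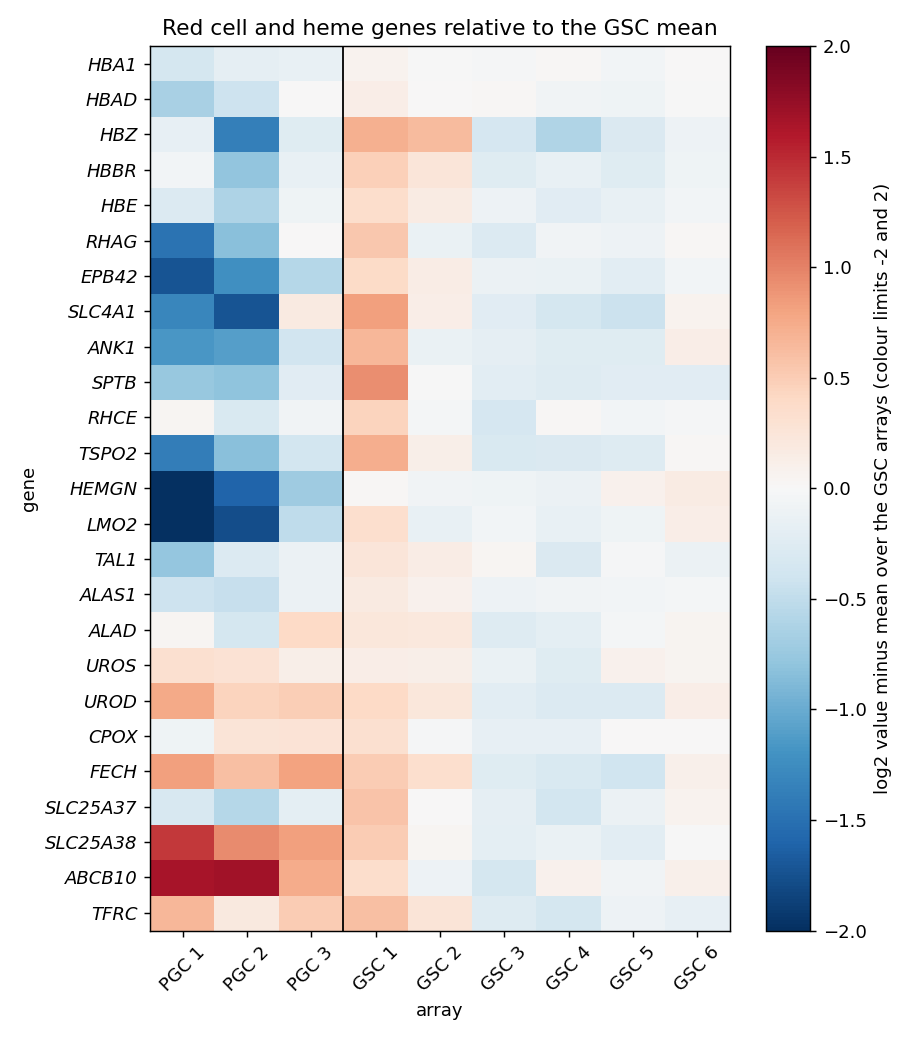
Log2 value minus the mean over the 6 GSC arrays (colour, with limits at -2 and 2) for red cell, erythroid factor and heme genes (rows) on the 3 PGC and 6 GSC arrays (columns). RHAG, EPB42, ANK1, TSPO2, HEMGN and LMO2 are lowest on PGC replicates 1 and 2, and FECH, SLC25A38 and ABCB10 are above their GSC mean on all 3 PGC arrays.

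The members shared their extreme arrays more than the order between them. GSC replicate 1 was the highest array for all 6 genes. The share of all genes highest on that array was not computed. Among the GSC arrays it was also the highest for FECH, UROD, SLC25A38 and ABCB10, which rose in PGC. TMOD3 and SPTAN1 were lowest there among the GSC arrays. A high value on that array was therefore not particular to the members. PGC replicate 1 was the lowest for 4 (HBA1, HBAD, RHAG and EPB42) and PGC replicate 2 for 2 (HBZ and ALAS1). On PGC replicate 3 HBAD lay at its GSC mean and RHAG 0.01 above it, whereas EPB42 lay 0.57 below it and HBA1 0.14 below it, so the nearness of that array to GSC was not the same for every gene.

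Markers of other cells moved between the same arrays. For comparison, 19.5% of all genes were called lower in PGC and 22.5% higher. Gonadal somatic markers were lower in 12 of 15 measured members and higher in 0, and their summed signal (log2 of the sum) was 11.79 to 12.81 on PGC arrays and 12.95 to 13.21 on GSC arrays. The mean over that list was 5.87, 6.45 and 7.40 on PGC replicates 1, 2 and 3, the order that RHAG, EPB42, HBA1 and HBAD also had. HBZ and ALAS1 did not have it. The endothelial (3.61, 4.25 and 4.78) and leukocyte (3.44, 3.70 and 3.77) lists had that order too, as had the nearness of the arrays to GSC. The thrombocyte list did not (3.28, 3.25 and 3.46). Endothelial markers were lower in 9 of 14 and higher in 0 (4 lower with GSC replicates 1 to 3 alone), with a summed signal of 7.78 to 9.34 in PGC and 9.62 to 10.04 in GSC. Leukocyte markers were lower in 4 of 9 and higher in 1, at 7.10 to 7.73 in PGC and 7.77 to 8.06 in GSC, and 2 were lower when PGC replicate 1 or 2, or any of GSC replicates 1, 2, 3 and 6, was left out. Of the leukocyte markers SPI1 and CD4 lay below the reporter mark on all 9 arrays.

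Thrombocytes, the nucleated clotting cells of birds, were represented by 7 markers, of which 3 were lower and 0 higher, where 19.5% of all genes were called lower. Their summed signal was 6.67 to 7.15 in PGC and 7.37 to 7.86 in GSC, and GP9, F13A1 and PLEK lay below the mark on all 9 arrays. TUBB1, a tubulin gene on that list, fell by 0.73 ± 0.20 (SE, limma adjusted p = 0.0115), a call lost without PGC replicate 1 (adjusted p = 0.0591). Whether its signal came from thrombocytes alone was not tested. Germ cell markers went the other way, at 11.40 to 12.23 in PGC and 8.09 to 8.35 in GSC. The part of these other cells in the red cell gene differences was not tested.

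The other probe sets of the globin genes add a check on the probe set chosen. HBA1 had a second strong probe set, with 11.90, 12.06 and 12.01 on the PGC arrays and 12.12 to 12.22 on the GSC arrays. It did not overlap between fractions and did not pass (log2 difference -0.19 ± 0.08 SE, limma adjusted p = 0.0960 over all probe sets). HBAD's second probe set measured 11.46, 11.67 and 11.78 on the PGC arrays and 11.78 to 11.93 on the GSC arrays (-0.19 ± 0.09, adjusted p = 0.165). The third probe set of each gene lay below the reporter mark on all 9 arrays, and carries no information on its level. HBZ and ALAS1 had 1 probe set each.

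The genes whose values ran most like those of 3 members over the 9 arrays were as follows. For EPB42 they were STK38, EFHD1 and SUFU (Pearson's r of 0.996, 0.994 and 0.993). For HBA1 they were HTR2B, RP2 and GTF2A1L (0.988, 0.984 and 0.983), and for RHAG they were AES, SLC4A2 and RPL27 (0.987, 0.985 and 0.982). The difference between fractions and PGC replicate 3 enter every one of these values, and no p is given.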

How the data were processed

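The deposited table gives each probe set a log2 value on each array, computed by the authors with RMA (background correction, normalization between arrays and summary of probes), per the submitters' processing notes. The log2 scale was taken from the range of the values (0.79 to 12.39). Precision is limited by having 3 PGC and 6 GSC arrays.

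Of 38535 probe sets, 96 controls (AFFX) were left out and 38439 tested. The platform annotation gave 1 symbol to 27178, several to 177 and none to 11180. A RefSeq gene table of assembly GRCg7b served for names and gene order, and 0 symbols changed through it. The brightest probe set stood for each gene.

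PGC minus GSC was fitted with limma 3.58.1 in R 4.3.3 (lmFit, eBayes; cell fraction alone, 9 arrays, two-sided, Benjamini-Hochberg over all genes or all probe sets), a step tested on simulated data. Of 182 list symbols, 126 genes were measured, 1 through a synonym (STAT5A for STAT5B). The members and lists were chosen with earlier results of these data known. Named are the members, up to 4 called genes of each pathway list in its main direction and 3 in the other, up to 3 per marker list, 7 fixed genes where measured (KLF1 and EPOR were not analysed here) and the 3 genes most like HBA1, RHAG and EPB42, leaving out placeholder symbols and those beginning with FAM or TMEM. ANK1, SPTB, RHCE and other list members outside that rule were chosen after their values were seen. Alternatives were another probe set rule, a filter on dim probe sets, 2 scalings, trend and robust fitting, array weights, GSC subsets, a replicate block and leaving out each array.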

Additional observations from a re-analysis of the deposited data

Results flagged for a closer look

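Within the 6 GSC arrays, 59 sets of values were examined for an array that stood apart from the others by Dixon's ratio of gap to range at the 95% level, and 6 had one, where chance gives about 1 in 20. In 5 of these 6 the array was GSC replicate 1, and AES was examined because it ran most like RHAG over the same arrays. All 59 sets share the same 6 arrays, and some are probe sets of the same gene or genes picked for running like a member. They are not separate instances, so their number cannot be weighed against that rate. RHAG was 6.07 there (ratio 0.636), and its second probe set did not stand apart. Likewise high on that array were the mitochondrial carrier SLC25A38 at 5.07 (0.646), the tubulin gene TUBB1 at 6.80 (0.630), the endothelial receptor KDR at 6.52 (0.648) and AES at 9.30 (0.683). The adducin ADD3 was high on GSC replicate 4, at 8.48 (0.631).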

How the results depend on the processing

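The direction of all 6 members was kept under all 18 alternatives each, and so were the call of EPB42 (log2 difference -1.48 to -0.90) and the missing call of HBZ (-0.92 to -0.20). With 1 array left out, the members called lower numbered 1 to 5, and those called higher 0, HBA1 lay between -0.26 and -0.16, HBAD between -0.53 and -0.20, RHAG between -1.16 and -0.41 and ALAS1 between -0.44 and -0.27. With a mean-variance trend and robust fitting 5 members were called, HBA1 (-0.22, limma adjusted p = 0.00221) and HBAD (-0.35, adjusted p = 0.0154) being added. HBAD also passed with array weights (-0.43) and with dim probe sets left out (-0.35, adjusted p = 0.0479, fewer genes being tested). HBA1 had a smaller difference with renewed quantile normalization (-0.14, limma adjusted p = 0.174) and did not pass. The same held with the mean of all probe sets of a gene (-0.14, adjusted p = 0.132). For HBA1 and for HBAD that mean includes a probe set below the reporter mark on every array. Both HBA1 values lie outside the range of HBA1 with 1 array left out. Because HBA1 is the highest probe set on each GSC array, renewed quantile normalization gives it 1 identical value on all 6. The smaller difference of HBA1 in that setting is therefore no separate check. HBAD did not pass with the mean of all probe sets (-0.22, limma adjusted p = 0.0814) or with renewed quantile normalization (-0.34, adjusted p = 0.0525). With fewer arrays (GSC replicates 1 to 3 only), 3394 genes and 1 member were called in place of 5466 and 3, and RHAG (-0.82) and ALAS1 (-0.39) were not. With GSC replicates 4 to 6 only 1 member was called, and RHAG (-0.72) and ALAS1 (-0.28) were not. The labels give same-numbered arrays only a number in common. The correlations of their deviations were 0.19, -0.07 and 0.01 for replicates 1, 2 and 3, and 1 of the 3 PGC arrays correlated best with its own number. So few arrays cannot decide whether same-numbered arrays share a preparation. With the replicate block on replicates 1 to 3, 3132 genes and 1 member were called, with RHAG at -0.82 and ALAS1 at -0.39. Under the block the counts called lower were 5 in place of 8 for red cell membrane and skeleton genes, 0 in place of 2 for heme and iron handling, 0 in place of 1 for red cell enzymes (TSPO2) and 1 in place of 4 for leukocyte markers, and the counts called higher were 0 in place of 2 for heme synthesis and 0 in place of 1 for leukocyte markers. With GSC replicates 4 to 6 only, 0 red cell enzymes, 0 other globins, 1 gene of heme and iron handling and 2 leukocyte markers were called lower. With GSC replicates 1 to 3 only, 1 gene of heme and iron handling was called lower and 0 leukocyte markers higher. The call of CYGB was absent with dim probe sets left out, and 1 gene of heme and iron handling was called lower with array weights. The median difference of all genes was -0.02, and -0.01 and 0.0026 with renewed quantile normalization and with median centring. Having 3 PGC arrays limits all comparisons, and compression of HBA1 and the other strong globin signals at the top of the scale was not tested.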
